A study of Mus musculus with 6 samples.

Results

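Osteoclasts and their committed precursors were examined in single-cell RNA sequencing (scRNA-seq) of the rotator cuff enthesis after injury, where the tendon of the supraspinatus meets the humeral bone. They are called osteoclast-lineage cells here and were chosen by measured values. A barcode had to hold at least 3 unique molecular identifiers (UMIs, single counted RNA molecules) of Ctsk, at least 3 of Acp5 and at least 1 of Atp6v0d2. It also needed at least 1000 UMIs, at least 200 genes and at most 10% mitochondrial UMIs, less than 1% of UMIs in Col1a1, Col1a2 and Col3a1, and less than 2% in S100a8 and S100a9. The last limits are meant to keep out barcodes with RNA of collagen-producing cells or of neutrophils. This gave 1240 of the 85339 barcodes that met the limits on UMIs, genes and mitochondrial UMIs, or 1.45%.

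The enthesis of C57BL/6 wild-type controls and of Nlrp3-/- mice, which lack the sensor protein of the NLRP3 inflammasome in all cells, was harvested 7 days post injury (dpi). Both groups were aged 12 to 14 weeks and had undergone transection and suture repair of the tendon, and 3 libraries were made per genotype by droplet-based 3′ capture. The study's methods describe its replicates as independent. Entheses were pooled, however, and the number of animals behind a library is not given, so p-values measure the spread between libraries, part of which may be technical. Of the Nlrp3-/- libraries, whose titles all name the Nlrp3 knockout, 2 carry genotype labels that name Nlrp4 or Nlrp5 instead.

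Osteoclasts arise from monocytes and macrophages under the cytokines M-CSF, which acts on Csf1r, and RANKL, which is encoded by Tnfsf11 and acts on RANK, encoded by Tnfrsf11a. These signals induce the transcription factor NFATc1, after which precursors leave the cell cycle, fuse into multinucleated cells and seal off a patch of bone. Proton pumps then acidify the sealed space, and cathepsin K and other proteases digest the bone matrix. Mature osteoclasts are large and attached to mineral, whereas their precursors are small mononuclear cells.

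The markers that chose these cells, and others that did not, were read in each library as UMIs scaled to 1000000 per library (CPM), summed over the osteoclast-lineage cells. Ctsk, which encodes cathepsin K, stood at 5390, 5830 and 7259 CPM in the wild-type libraries and at 9182, 9522 and 9148 CPM in the Nlrp3-/- libraries. Acp5, the tartrate-resistant acid phosphatase used to stain osteoclasts, ranged from 3673 to 4744 CPM, and Atp6v0d2, a proton pump subunit of osteoclasts, from 583 to 800 CPM. As these 3 genes defined the cells, their levels are a description. In the test of the genotypes described below, Ctsk had a log2 fold change of 0.44 and was not called (edgeR adjusted p = 0.22). No conclusion is drawn from that test, because a fixed minimum of Ctsk UMIs chose the cells and the libraries differ in depth. Mmp9, a matrix protease, and Ckb, a creatine kinase of osteoclasts, were not used by the rule and served as a check of the name. Mmp9 ranged from 2310 to 4304 CPM, against 8.49 to 55.0 CPM in macrophages of the same libraries. Ckb ranged from 1015 to 1600 CPM, against 92.4 to 182 CPM in the macrophages. Both markers were present in every library, and neither range overlapped that of macrophages. Neither was particular to these cells. An Mmp9 UMI was held by 60.2% to 82.2% of neutrophil and 5.16% to 13.8% of macrophage barcodes, and a Ckb UMI by 1.55% to 4.06% of neutrophil and 35.4% to 51.6% of macrophage barcodes. Those macrophages, called C1q macrophages, were 5771 barcodes under the same limits with at least 1 Csf1r UMI, at least 3 UMIs of the complement genes C1qa, C1qb and C1qc, at most 2 of Ctsk and of Acp5 and none of Atp6v0d2.

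Late markers were found in part of the cells. At full depth 39.1% to 55.3% of cells in a library held a UMI of Dcstamp and 43.1% to 64.6% one of Ocstamp. After each cell was thinned to 3000 UMIs, 18.8% of 1193 cells held a UMI of Dcstamp and 26.5% one of Ocstamp, which both encode membrane proteins needed for fusion. Calcr, the calcitonin receptor of mature osteoclasts, was found in 3 of the 1193 (0.719% to 1.78% of cells at full depth) and Siglec15, a receptor of fusing osteoclasts, in 11 (0.889% to 4.87% at full depth). Nfatc1 was found in 70.5%, against 7.91% to 15.8% of neutrophil barcodes. Neutrophils, which do not form osteoclasts, served to show the contribution of free RNA. They held a UMI of Dcstamp in 0% to 0.142% of barcodes, of Ocstamp in 0.0814% to 0.387% and of Ctsk in 3.70% to 11.96%, at median depths of 2259 to 3933 UMIs. Of the 16165 neutrophil barcodes, 11 met all 3 marker minimums. The median depth of the osteoclast-lineage cells was 10445 UMIs in Nlrp3-/- replicate 1 and 16725 to 20970 UMIs in the other libraries.

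At the edges of the rule, the 41 barcodes with exactly 3 Ctsk UMIs had 122 CPM of Mmp9 and 175 CPM of Ckb, and the 48 barcodes that failed by 1 Ctsk UMI had 132 and 66.9 CPM. Cells with 1 Atp6v0d2 UMI were more common, at 128, with 613 CPM of Mmp9 and 233 CPM of Ckb. The 164 barcodes that failed only for want of this UMI had 269 and 127 CPM. At the edge of the Acp5 minimum, 40 cells with 3 UMIs and 41 barcodes with 1 fewer differed in Ckb (268 and 154 CPM) but little in Mmp9 (84.0 and 84.4 CPM). The collagen limit left out 232 barcodes that met every other condition, 164 of them in Nlrp3-/- replicate 1, where their median depth was 2548 UMIs. The neutrophil limit left out 80, of which 34 were in that library. The barcodes left out held 1496 CPM of Mmp9 and 540 CPM of Ckb (collagen limit) and 2875 and 802 CPM (neutrophil limit). These levels lay above those of the cells kept at the edges of the marker minimums. Except for Mmp9 under the neutrophil limit, they lay below the ranges over libraries given above for all cells kept. An Mmp9 UMI was also held by 60.2% to 82.2% of neutrophil barcodes. Osteoclast-lineage cells may be among the barcodes left out, which was not tested.

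RNA of other cells was present in many of the cells kept, and no doublet caller was run. At least 5 UMIs from the marker list of another cell type were held by 609 of the 1240 cells, with neutrophil markers in 410 and mesenchymal or bone-forming markers in 384. The affected cells were 93 of 131, 91 of 226 and 33 of 139 in the wild-type libraries and 35 of 225, 115 of 186 and 242 of 333 in the Nlrp3-/- libraries. Their share was highest in Nlrp3-/- replicate 3 and lowest in Nlrp3-/- replicate 1, so it was not ordered by genotype. Summed over the 9 neutrophil genes, the osteoclast-lineage cells held 116 to 343 CPM in wild-type and 98.0 to 434 CPM in Nlrp3-/- libraries, and the 10 mesenchymal genes summed to 146 to 360 and 216 to 397 CPM. No osteoclast-lineage barcode occurred as one in a second library, and 21 recurred among the other barcodes kept in another library. An osteoclast joined with a macrophage in a single droplet would not be found this way.

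Promoters of marker genes are shown because these genes rise together in the lineage. Ctsk, Acp5 and Ckb were taken from a table of RefSeq promoters (build GRCm38.p6), and those of Atp6v0d2 and Mmp9 are not shown here. Each is given with the 250 bases before the start of transcription printed 5′ to 3′ on the strand of the gene. Capitals mark GGAAA, the core bound by NFAT and ETS factors, on either strand (TTTCC on the other). The motif was found in 55.6% of the 32851 promoters in the table. CACGTG, an E-box read by MITF and its relatives and present in 6.02% of promoters, and TGANTCA, an AP-1 site present in 6.75%, had no match in the 3 windows.
Ctsk, chr3:95498960-95499209, plus strand: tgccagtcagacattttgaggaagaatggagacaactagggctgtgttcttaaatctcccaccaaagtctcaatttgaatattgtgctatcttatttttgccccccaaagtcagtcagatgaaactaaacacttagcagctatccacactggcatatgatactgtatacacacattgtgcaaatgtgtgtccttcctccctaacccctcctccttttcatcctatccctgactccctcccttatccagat
Acp5, chr9:22130599-22130848, minus strand: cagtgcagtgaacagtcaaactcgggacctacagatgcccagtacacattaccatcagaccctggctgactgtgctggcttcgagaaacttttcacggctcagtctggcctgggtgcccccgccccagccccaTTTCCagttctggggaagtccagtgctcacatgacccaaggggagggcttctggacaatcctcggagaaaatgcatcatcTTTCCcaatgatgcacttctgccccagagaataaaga
Ckb, chr12:111672339-111672588, minus strand: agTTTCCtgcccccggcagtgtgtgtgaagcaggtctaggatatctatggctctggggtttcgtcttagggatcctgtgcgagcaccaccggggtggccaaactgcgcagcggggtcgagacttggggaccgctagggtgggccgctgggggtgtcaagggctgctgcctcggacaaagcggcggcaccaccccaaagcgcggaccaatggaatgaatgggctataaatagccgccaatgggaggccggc
The Acp5 window shown, which belongs to the start nearest the coding sequence among the 3 in the table, held GGAAA 2 times. Ckb held it 1 time, far from the start, and Ctsk had none. A match is a run of letters and was not tested as a binding site.

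Osteoclast-lineage cells made up 1.04%, 1.46% and 1.40% of barcodes in the wild-type libraries and 1.02%, 1.57% and 2.48% in the Nlrp3-/- libraries. The groups overlapped, with means of 1.30 ± 0.229% and 1.69 ± 0.738% (SD, n = 3) and a difference of 0.393 percentage points (exact permutation p = 0.5, two-sided, with 0.1 the smallest p that 3 against 3 allows). Nlrp3-/- replicate 3 alone carried the higher mean, and without it the difference was -0.0022 percentage points. The share depends on depth, since deeper barcodes meet marker minimums more easily. In Nlrp3-/- replicate 1, 10660 of 22048 barcodes had fewer than 2000 UMIs. When all barcodes were thinned to 2000 UMIs, with the shallower ones left out, the shares were 0.507%, 0.885% and 0.814% in wild-type and 1.03%, 1.12% and 1.39% in Nlrp3-/- libraries. These groups did not overlap (exact permutation p = 0.1), nor did they with a minimum of 2000 UMIs and no thinning (means 1.59% and 2.11%, exact permutation p = 0.1). Free Ctsk RNA, read in barcodes of at most 100 UMIs, separated the genotypes in the same way, at 194, 308 and 348 CPM in wild-type and 471, 370 and 578 CPM in Nlrp3-/- libraries, and its part in the shares was not tested. With no limit on collagen, an alternative chosen after seeing the data, the shares were 1.05%, 1.62% and 1.52% in wild-type and 1.76%, 1.64% and 2.64% in Nlrp3-/- libraries (exact permutation p = 0.1). The groups then did not overlap, and 164 of the 232 barcodes gained were in Nlrp3-/- replicate 1. Relative to barcodes with a Csf1r UMI the means were 4.72% and 6.95% (exact permutation p = 0.2). With a mitochondrial limit of 5% they were 1.27% and 1.47% (exact permutation p = 0.9), and with stricter marker minimums 1.13% and 1.43% (exact permutation p = 0.7), with overlap in both. A higher share in Nlrp3-/- libraries was thus not established beyond the spread of 3 libraries.

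**Figure D1:**
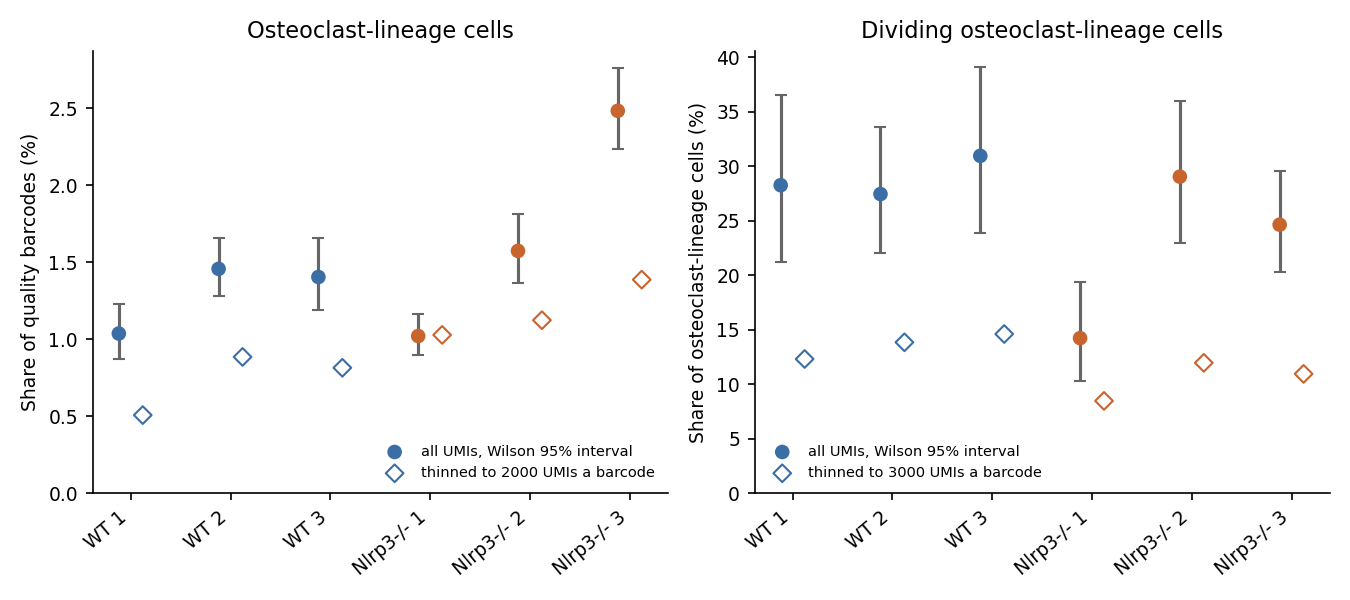
Share of osteoclast-lineage cells among quality barcodes (left, %) and of dividing cells among them (right, %) in each library, as counted and after thinning to an equal number of UMIs. Points are libraries with Wilson 95% intervals for counting error. As counted the genotypes overlap in both panels, and after thinning they do not.

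Dividing cells were those with at least 2 UMIs of Mki67 and Top2a together, both made by proliferating cells. They were 310 of the 1240, or 25%. The share was 28.2%, 27.4% and 30.9% in wild-type and 14.2%, 29.0% and 24.6% in Nlrp3-/- libraries, with means of 28.9 ± 1.83% and 22.6 ± 7.60% (SD, n = 3) and an exact permutation p of 0.3. The low value came from the shallowest library, Nlrp3-/- replicate 1, and without it the difference was -2.04 in place of -6.24 percentage points. Thinned to 3000 UMIs the shares were 12.3%, 13.8% and 14.6% against 8.47%, 11.96% and 10.9%, without overlap (exact permutation p = 0.1). With a mitochondrial limit of 5% the difference was -3.40 percentage points (exact permutation p = 0.7), and Nlrp3-/- replicate 2, at 36.4%, lay above every wild-type library. Dividing cells were deeper than non-dividing cells in every library, with medians of 16325 against 9237 UMIs in Nlrp3-/- replicate 1 and 25715 against 18566 UMIs in wild-type replicate 1. Without the 609 mixed cells, a limit in UMIs that deeper cells pass more easily, the shares were 7.89% (3 of 38 cells), 17.8% and 32.1% in wild-type and 14.2%, 23.9% and 12.1% in Nlrp3-/- libraries, with means of 19.2% and 16.7% (exact permutation p = 0.8). Of the neutrophil barcodes, 12.99% to 25.2% met the same minimum of Mki67 and Top2a, and their part in the dividing share was not tested.

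The identity of the cells was described against the C1q macrophages of the same library, with no test, because genes of the same cells had chosen them. Ratios are log2((CPM + 1)/(CPM + 1)), taken within each library and given as the median over the 6 libraries. Of all 9692 genes with at least 5 CPM in either population, 32.6% were higher in 6 of 6 libraries and 34.3% were lower in all 6, with a median ratio of -0.0049.

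Receptors were not uniformly higher. Oscar, a costimulatory receptor of osteoclasts, was at 48.0 CPM against 0.11 CPM (ratio 5.56), and Tnfrsf11a, the receptor for RANKL, at 104 against 56.2 CPM (0.77). Csf1r was at 339 and 357 CPM (0.02), where the macrophage level is raised by their choice, since each had to hold a Csf1r UMI. Trem2 (-1.73) and Fcer1g (-1.57), whose products take part in immunoreceptor signalling, were lower in all 6 libraries. In all, 4 of 13 receptor and signalling genes were higher and 7 lower in 6 of 6 libraries, with a median of -0.35.

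Among transcription factors, Nfatc1 was at 480 against 46.1 CPM (3.35), and its values of 336 to 600 CPM over the libraries lay above every macrophage value, of which the highest was 59.6 CPM. Jdp2, an AP-1 family factor needed for osteoclast formation (3.06), Prdm1, a repressor of anti-osteoclast genes (2.19), and Mitf (1.63) were also higher in 6 of 6 libraries. The list of 15 driving factors as a whole had 7 higher, 4 lower and a median of 0.12. All 7 factors that oppose osteoclast formation were lower, with a median of -1.79. Irf8, a factor of the monocyte and macrophage lineage, was at 19.5 against 140 CPM (-2.78).

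For the proton pump and ion transport of the ruffled border, the membrane facing bone, 18 of 23 genes were higher, with a median of 1.24. They included Car2, the carbonic anhydrase that supplies protons (3.67), Slc4a2, the chloride-bicarbonate exchanger (2.36), Snx10, a sorting protein of vesicle traffic (2.12), and the pump subunit Tcirg1 (1.24). In the same list Atp6v0a1 was lower (-2.71), at 8.20 against 55.5 CPM. Energy supply had 16 of 17 genes higher (median 1.27), with Ppargc1b, a coactivator of mitochondrial biogenesis, at 3.58 and Cycs, cytochrome c, at 2.02. Matrix proteases split. Mmp9 had a ratio of 7.60, while 7 of the 11 genes were lower, among them the lysosomal proteases Ctss (-2.37), Ctsb (-2.09) and Ctsd (-1.99), which macrophages use as well. Of the sealing zone genes 10 of 16 were higher and 5 lower (median 0.40), led by Itgb3, the beta subunit of the vitronectin receptor (3.84), and Src (3.29). For cell fusion 5 of 10 were higher and 5 lower, with Ocstamp at 5.59, Dcstamp at 5.36 and Cd81, a tetraspanin, at -3.02. All 6 late osteoclast genes at a sufficient level were higher (median 4.0).

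Other genes with large ratios lay outside these lists. Mt3, a metallothionein, was at 276 against 0.46 CPM (7.42), and Slc9b2, a sodium-proton exchanger of osteoclasts, at 287 against 4.05 CPM (6.02). Coq8a, of coenzyme Q synthesis (4.93), the surface protein gene Cd200 (4.44), Bdh2 (4.29) and Arsb, a lysosomal sulfatase (3.96), followed. Chemokine genes were among the lowest: Ccl8 was at 7.29 against 483 CPM (-6.82), Ccl12 at -5.92, Pf4 at -5.21, Ccl2 at -4.67 and Ccl7 at -4.63. Mrc1, the mannose receptor (-5.08), and Adgre1, which encodes the macrophage antigen F4/80 (-4.39), were also low. All 10 monocyte genes (median -2.23), 14 of 15 tissue macrophage genes (-4.07) and all 7 MHC class II genes (-3.54) were lower in 6 of 6 libraries. C1q genes were used to choose the macrophages, so their part in these counts is fixed by the choice.

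**Figure D2:**
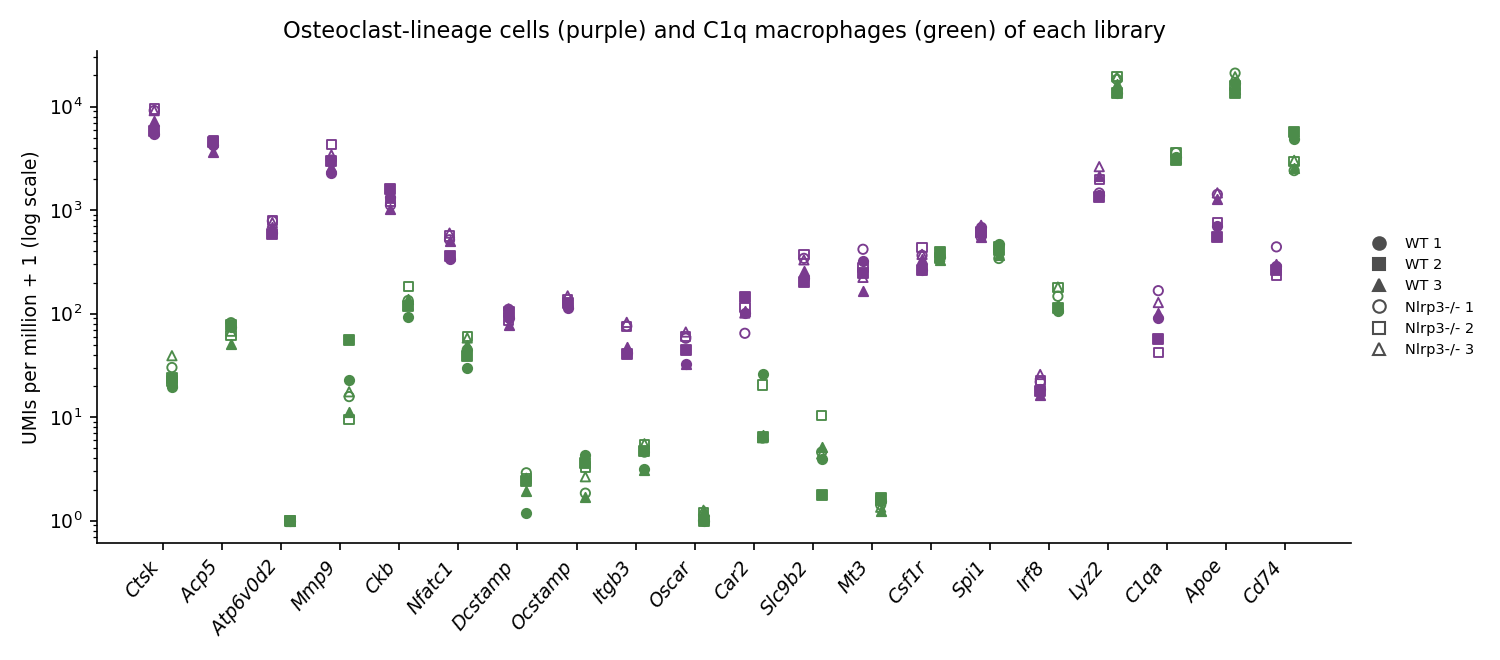
Level of osteoclast genes in CPM on a log axis, with one purple point per library for osteoclast-lineage cells and one green point for C1q macrophages. Mmp9, Ckb, Nfatc1, Dcstamp and Ocstamp lie apart in every library, and Atp6v0d2 is at 0 in macrophages by their definition.

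Inflammasome and IL-1 genes were mostly lower in these cells than in C1q macrophages. Of 14 at a sufficient level, 10 were lower and 1 higher in 6 of 6 libraries, with a median of -0.91. Of all genes 34.3% were lower and 32.6% higher. Nlrp3 was at 17.1, 26.6 and 16.6 CPM in the wild-type libraries, against 78.5, 105 and 125 CPM in C1q macrophages, and had 0 UMIs in every Nlrp3-/- library, against 228 in wild-type. Neutrophil barcodes of the wild-type libraries held 164, 503 and 236 CPM, with an Nlrp3 UMI in 35.0% to 55.4% of them, against 2.92% to 5.38% of thinned osteoclast-lineage cells, and the part of neutrophil RNA in the level was not tested. With a floor of 3 counts for each library, the level was at least 22.8-fold lower. Il18 (-4.05), Il1b (-2.84) and P2rx7 (-2.05) were lower than in macrophages in all 6 libraries, and Gsdmd, which encodes the pore protein gasdermin D, was the 1 gene of 14 that was higher (0.83). Between the genotypes, edgeR called 1 of the 12 listed inflammasome and IL-1 genes tested, Nlrp3, against 0.396% of all genes, and DESeq2, which gave Nlrp3 no adjusted p, called none. The list does not hold the decoy receptor Il1r2, which was called lower. Without wild-type replicate 3, when 14.2% of all genes were called, Gsdmd was also lower (-0.75, edgeR adjusted p = 0.0096) and Nek7, a partner of NLRP3, higher (0.52, adjusted p = 0.047).

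Dividing and non-dividing osteoclast-lineage cells were then compared within libraries, again without a test. Of 9246 genes, 21.7% were higher and 14.5% lower in dividing cells in 6 of 6 libraries, with a median of 0.05. As the split implies, all 16 S phase genes (median 2.44) and all 16 G2 and M phase genes (4.37) were higher. Resorption genes were lower: 22 of the 23 acid secretion genes (median -0.69), 10 of 11 matrix degradation genes (-0.74), 12 of 16 sealing zone genes (-0.35) and 5 of 6 late genes (-1.43). Ckb was at 364 CPM in dividing and 1697 CPM in non-dividing cells (-2.34), Mmp9 at 1243 and 3976 CPM (-1.68), Itgb3 at -2.97, Oscar at -2.77, Ocstamp at -1.63, Snx10 at -1.40 and Dcstamp at -1.23. Mt3 (-3.15), Arsb (-1.76) and Spp1, which encodes osteopontin (-1.90), were lower too. Ctsk, Acp5 and Atp6v0d2 lay lower in dividing cells of every library, for example Ctsk at 3774 to 4865 CPM against 10466 to 12197 CPM in the Nlrp3-/- libraries. These genes chose the cells by fixed UMI minimums, which the deeper dividing cells can pass at a lower CPM. Their values are therefore a description and add nothing to the counts above. Whether the same minimums shifted other genes that rise with these markers, and so the counts above, was not tested.

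By their median, differentiation factors differed less between the same cells, although the lists were not compared by a test. Nfatc1 differed by -0.15, Jdp2 by -0.02, Prdm1 by 0.03 and Spi1, the myeloid factor PU.1, by -0.13. The 15 factors had a median of -0.08, with 5 lower and none higher in 6 of 6 libraries. Of all genes 14.5% were lower and 21.7% higher. The 5 were Cebpa (-0.46), Fosl2 (-0.33), Mitf (-0.19), Nfatc1 and Spi1. Tnfrsf11a was at -0.32 in 5 of 6 libraries. Monocyte genes showed no common direction (median -0.13), although Plac8 (1.79) and Ly6c2 (1.38) were higher in dividing cells of 5 libraries. Mpo RNA was high in dividing cells of 2 libraries, while the neutrophil list as a whole had a median of 0.15. Mpo, a granule enzyme of neutrophil precursors, was at 134 and 172 CPM in dividing cells of Nlrp3-/- replicates 2 and 3. It was at 1.05 to 16.2 CPM in the dividing cells of the other libraries and at 3.50 to 13.98 CPM in all non-dividing cells. C1q macrophages held Mpo at means of 109 CPM in wild-type and 112 CPM in Nlrp3-/- libraries. The source of the Mpo RNA and the part of RNA from other cells in the differences above were not tested.

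The cells of each library were also split into 3 equal parts by the share of their UMIs in Ctsk, with 43 to 111 cells in a part, and the highest part was set against the lowest. Ctsk had also chosen the cells, so this is a description without a test. Genes that rise with Ctsk differ between the parts by this choice. Median Ctsk shares ran from 0.0614% to 0.139% in the lowest and from 1.02% to 1.73% in the highest parts, and the dividing share was 26.7% to 56.5% in the lowest and 2.70% to 16% in the highest. Acid secretion (22 of 23 genes, median 1.30), late genes (6 of 6, 3.45) and sealing zone genes (12 of 16, 0.70) were higher in the highest part in 6 of 6 libraries, against 15.3% of 9372 genes. Matrix degradation split, with 4 of 11 genes higher and a median of -0.20, as did cell fusion, with 5 of 10 higher and a median of 0.17. Oscar rose from 0.88 to 125 CPM (6.14), Itgb3 from 4.12 to 144 CPM (4.91), Ckb from 154 to 2960 CPM (4.36), Mmp9 from 432 to 6759 CPM (4.18), Dcstamp by 3.64 and Ocstamp by 3.27 on the log2 scale. In the lowest part Ckb was at 86.1 to 255 CPM over the libraries, which overlaps the range of C1q macrophages, so the check of the name by Ckb rests on cells with more Ctsk. Tissue macrophage genes ran the other way, with 11 of 15 lower in the highest part in 6 of 6 libraries (median -1.70), against 26.3% of all genes. C1qa was at 216 CPM in the lowest and 24.5 CPM in the highest part (-3.44) and Lyz2, lysozyme, at 3810 and 446 CPM (-3.07). The driving transcription factors had a median of -0.10, and among them Nfatc1 was higher in the highest part in 6 of 6 libraries, at 581 against 357 CPM (0.73). The parts are cut from a continuous value, and the share of macrophage RNA in the lowest part was not tested.

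**Figure D3:**
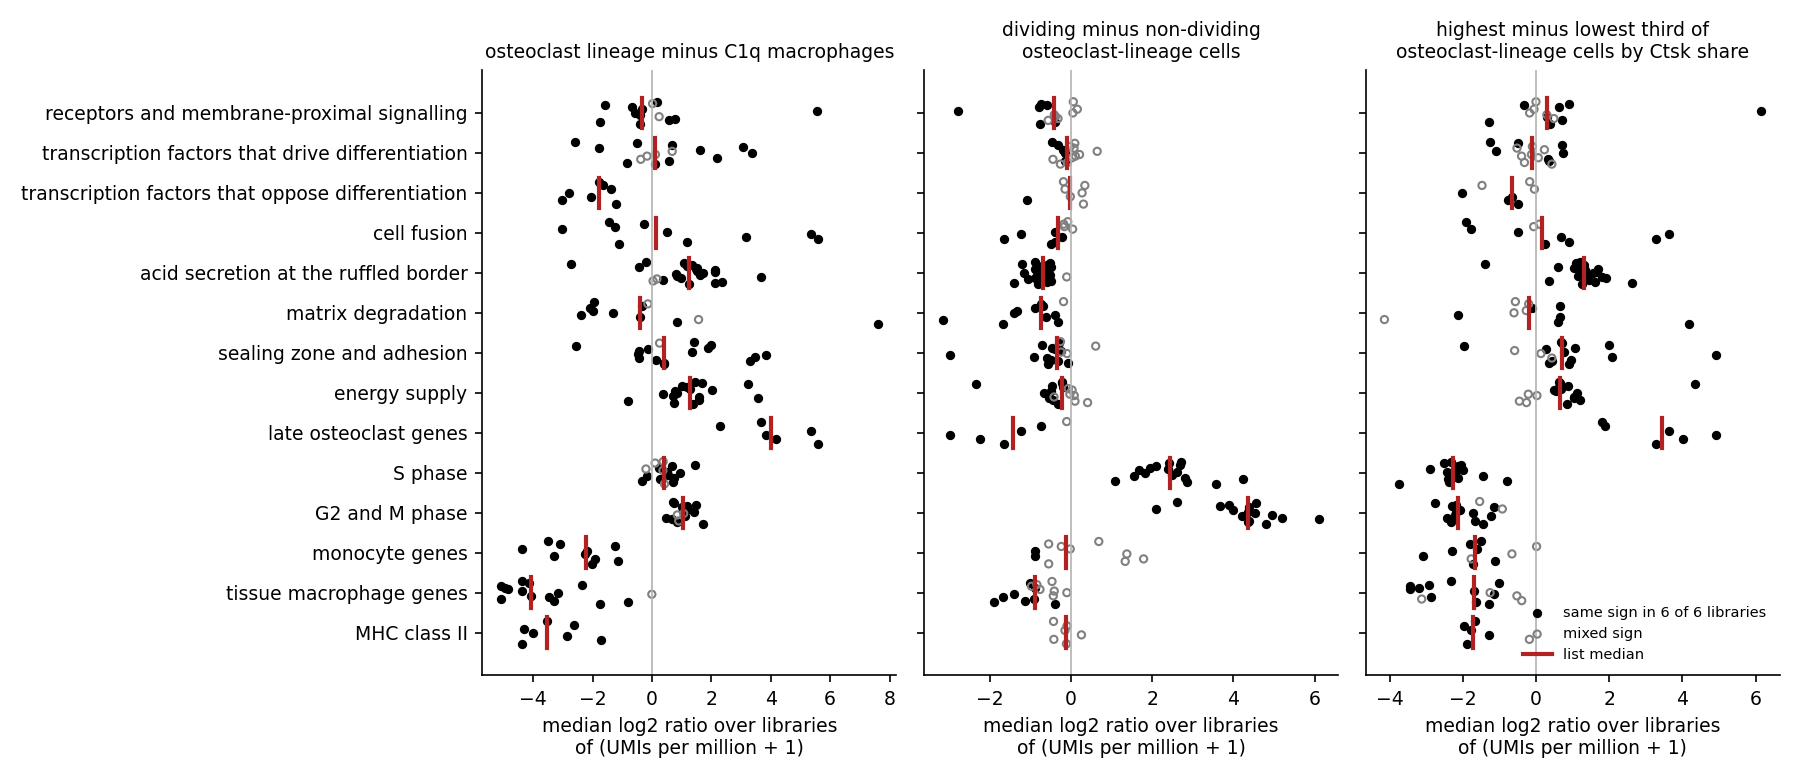
Median log2 ratio over the 6 libraries for the genes of each list (horizontal axis) for osteoclast-lineage cells against C1q macrophages, dividing against non-dividing cells, and the highest against the lowest of 3 parts by Ctsk share. Each point is a gene (filled where its sign was the same in 6 of 6 libraries) and each red bar the median of the list. The medians of acid secretion and late osteoclast genes lie above 0 in the left and right panels and below 0 in the middle one, while the medians of the driving transcription factors lie near 0 in all panels.

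The comparison of the genotypes asked whether osteoclast-lineage cells that formed without Nlrp3 differed in expression. The sums of UMIs in each library entered a quasi-likelihood fit in edgeR across all genes. Xist, expressed from the inactive X chromosome, had 6953 UMIs in Nlrp3-/- cells and 0 in wild-type cells. The Y-linked genes Ddx3y and Eif2s3y had 310 and 367 UMIs in wild-type cells and 0 in Nlrp3-/- cells. Sex and genotype were therefore the same split and cannot be told apart in any comparison of the genotypes, the shares and inflammasome genes above included. By the study's methods, wild-type mice were bought from the Shanghai Laboratory Animal Center and Nlrp3-/- mice came from Cyagen. The source of the mice, with any difference in genetic background, thus follows the same split and cannot be told apart from genotype either. Of 9854 genes, 39 (0.396%) had an adjusted p under 0.05. Nlrp3-/- cells had 18 of them at a higher level (0.183%) and 21 at a lower level (0.213%), or 19 and 15 when scaled by total UMIs. At an unadjusted p under 0.05 there were 1666. Of the 39 genes, 4 were on chromosome X, 4 on Y and 9, Nlrp3 included, within 20 Mb of Nlrp3 on chromosome 11, where 312 of the tested genes lie. The remaining 22 lay elsewhere.

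One wild-type library stood apart. Wild-type replicate 3 correlated at 0.965 to 0.966 with the other wild-type libraries (log CPM over 9854 genes) and at 0.969 to 0.976 with the Nlrp3-/- libraries. Ribosomal protein genes took 23.7%, 22.9% and 19.7% of UMIs in wild-type and 19.3%, 16.9% and 17.3% in Nlrp3-/- cells. Without this library 1440 of 10168 genes (14.2%) were called, 610 higher and 830 lower, and all 39 were among them. Scaling by total UMIs in place of TMM factors moved the median log2 fold change of all genes from 0.02 to 0.18, so small changes below are relative to that choice.

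Genes higher in Nlrp3-/- osteoclast-lineage cells included Itgb3 (chr11:104608000-104670476), the integrin subunit through which osteoclasts hold to bone. It stood at 41.1, 39.5 and 46.3 CPM in wild-type and at 75.4, 74.0 and 81.5 CPM in Nlrp3-/- cells. Every Nlrp3-/- library lay above every wild-type library, and the log2 fold change was 0.71 with a standard error of 0.12 (edgeR adjusted p = 0.037). With a mitochondrial limit of 5% it was 0.24 (adjusted p = 0.63), and the call was lost in 9 of 17 alternatives. Mitochondrial genes took 1.74% to 2.30% of UMIs in wild-type and 2.61% to 3.82% in Nlrp3-/- cells, and their part in the difference was not tested.

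Fn1, fibronectin, was at 138, 116 and 141 CPM in wild-type and 292, 275 and 345 CPM in Nlrp3-/- cells (log2 fold change of 1.05 with an SE of 0.14, edgeR adjusted p = 0.0047). Mesenchymal barcodes held Fn1 at 3595 to 6673 CPM. Without the mixed cells the log2 fold change was 0.46 (adjusted p = 0.47), and the call was lost in 5 of 17 alternatives. Gm2a, which encodes the GM2 ganglioside activator of lysosomes and lies within 20 Mb of Nlrp3, was at 69.1, 105 and 93.3 CPM in wild-type and at 311, 239 and 242 CPM in Nlrp3-/- libraries (1.40, SE 0.18, adjusted p = 0.0047). Gmfg, a regulator of branched actin, was at 69.8, 59.9 and 59.7 against 182, 147 and 138 CPM (1.14, SE 0.16, adjusted p = 0.012). Both remained called under all 17 alternatives. Mpo was at 5.09, 7.36 and 3.26 against 13.4, 57.7 and 56.6 CPM (2.80, adjusted p = 0.030), with the high values in the 2 libraries whose dividing cells carried it. Neutrophil barcodes held Mpo at 109 to 324 CPM, with the lowest level in Nlrp3-/- replicate 1. C1q macrophages held Mpo at means of 109 CPM in wild-type and 112 CPM in Nlrp3-/- libraries. Thg1l, an enzyme of tRNA maturation near Nlrp3 (1.68), the unplaced gene AC149090.1 (1.31), Eif2s3x on the X chromosome (0.91), Tvp23b near Nlrp3 (0.91) and Sacm1l, a phosphoinositide phosphatase (0.79), completed the higher genes that met the naming rule. Of these calls, that of Tvp23b was lost in 12 of 17 alternatives, Sacm1l in 9, Eif2s3x in 7 and Thg1l and AC149090.1 in 1 each, and that of Mpo in 4 of 15. The rule asked for a mean of 20 CPM over all 6 libraries.

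Among genes that were lower, Wdfy1 stood at 81.8, 84.9 and 115 CPM in wild-type and at 23.9, 17.8 and 22.8 CPM in Nlrp3-/- cells (log2 fold change of -2.28 with an SE of 0.16, edgeR adjusted p = 4.2e-05). Tpm3-rs7, a gene model related to tropomyosin 3 that may share reads with it, was at 141, 60.3 and 158 CPM against 2.09, 2.07 and 1.51 CPM (-6.17). Ifi27l2a, an interferon-induced gene, was at 599, 366 and 412 CPM against 255, 157 and 194 CPM (-1.35, adjusted p = 0.040). Its level in the low-UMI barcodes of the same libraries was 356 to 1187 CPM in wild-type and 186 to 259 CPM in Nlrp3-/- libraries, so free RNA differed in the same direction, and its part was not tested. Hist3h2a (-1.53) and Mrpl55 (-0.80), both near Nlrp3, Rps27rt (-1.36), Rbis (-1.09), Pex16 (-0.94) and Psmg4 (-0.74) were the others. Their calls were less stable than those of Wdfy1 and Tpm3-rs7, which held in all 17 alternatives: Psmg4 lost its call in 11, Pex16 and Mrpl55 in 10, Rps27rt in 9, Rbis in 7, Ifi27l2a in 6 and Hist3h2a in 2.

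**Figure D4:**
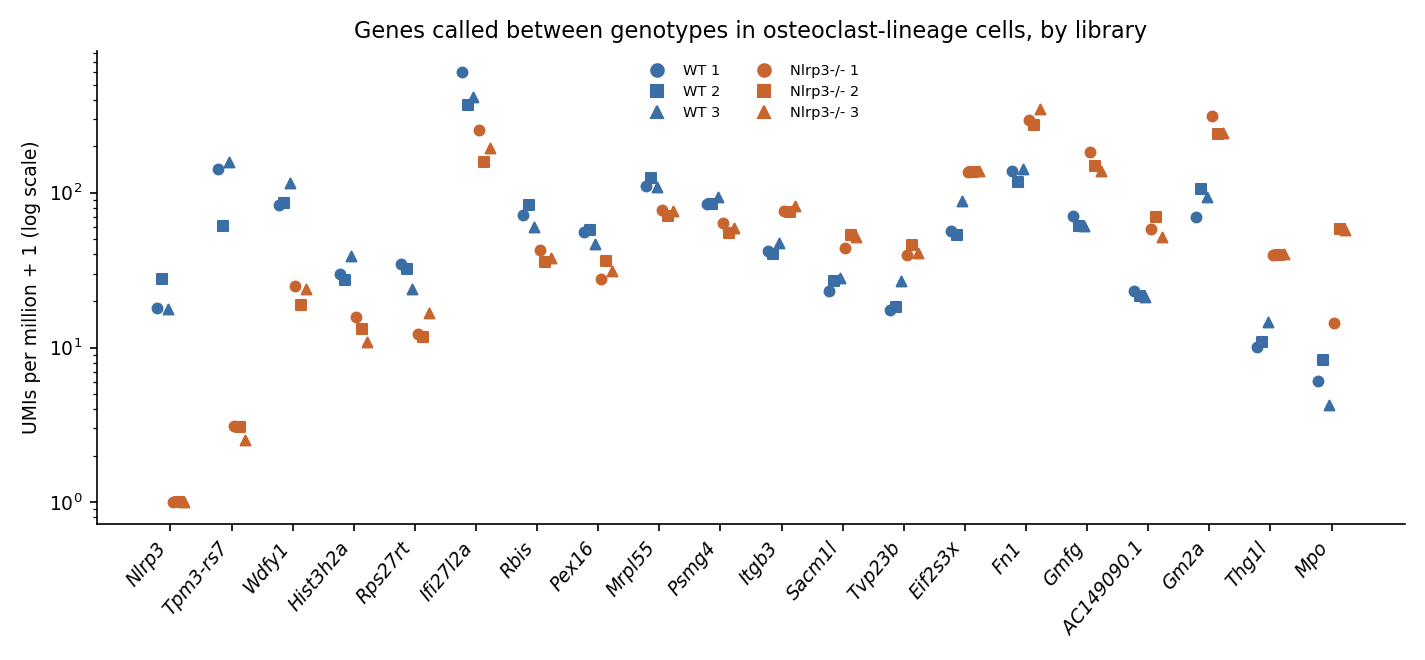
Level of the named genes other than Xist, Ddx3y and Eif2s3y in the 3 wild-type and 3 Nlrp3-/- libraries, in CPM of osteoclast-lineage cells on a log axis with 1 added. Every gene shown has no overlap between the groups, which the naming rule required of all but Nlrp3, and Mpo shows the widest spread among Nlrp3-/- libraries.

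Among the lists of the osteoclast programme, read against the 0.396% of all genes called, there was 1 call. Of 16 sealing zone genes, 1 (Itgb3) was called and 15 had a positive log2 fold change, with a median of 0.37 against 0.02 for all genes. The count of positive values was 14 with RLE size factors and 16 when scaled by total UMIs, where 7009 of all 9854 genes were positive, against 5114 with TMM factors. None of the 15 driving transcription factors (median 0.33), the 10 fusion genes (0.16), the 23 acid secretion genes (0.07), the 11 matrix genes (0.06) or the 17 energy genes (-0.13) was called by edgeR. DESeq2 called 2 driving factors and 1 fusion gene higher and 1 energy gene lower. Its calls have a larger background than the 0.396% of edgeR, since over all 9854 genes DESeq2 called 49 higher and 188 lower. Nfatc1 was at 336, 359 and 506 CPM in wild-type and at 517, 563 and 600 CPM in Nlrp3-/- cells (log2 fold change of 0.33, edgeR adjusted p = 0.26). The lowest Nlrp3-/- library thus lay just above wild-type replicate 3. Prdm1 was at 76.7, 82.8 and 149 against 205, 181 and 184 CPM (0.75, adjusted p = 0.13), and Snx10 at 237, 248 and 392 against 424, 410 and 443 CPM (0.40, adjusted p = 0.24). In these genes wild-type replicate 3 lay between the other wild-type libraries and the Nlrp3-/- libraries. None of the 13 receptor genes (0.08), the 10 signals to bone-forming cells (0.19), the 15 tissue macrophage genes (0.22) or the 6 MHC class II genes (0.28) was called by edgeR, while DESeq2 called 1 signal to bone-forming cells and 1 tissue macrophage gene higher, and Fn1 was the 1 called of 10 monocyte genes (0.13). Cell cycle genes gave medians of -0.02 (S phase) and -0.07 (G2 and M phase), which turned to 0.14 and 0.09 when scaled by total UMIs, and the energy median turned to 0.04. The G2 and M phase median was -0.57 without the mixed cells and -0.23 without wild-type replicate 2, with 15 of 16 genes negative in both. Without wild-type replicate 3 the G2 and M phase median was 0.07, with 11 of 16 genes positive. The S phase median was -0.17 without Nlrp3-/- replicate 2, with 15 of 16 genes negative, and DESeq2 called 1 S phase gene lower.

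Without wild-type replicate 3 the same lists held more calls, against 14.2% of all genes. Of the 16 sealing zone genes 9 were called higher, among them Ptk2b, a focal adhesion kinase (1.23), Itgav, the partner of Itgb3 (0.92), Gsn, gelsolin (0.84), and Src (0.43). Of the 15 driving factors 8 were higher, with Cebpa at 1.18, Prdm1 at 1.02, Fos at 0.88, Fosl2 at 0.75 and Nfatc1 at 0.46, and 1 (Nfkb2, -0.42) was lower. Of the 10 fusion genes 4 were higher, with Cd9 at 1.22 and Cd44 at 1.10, while Dcstamp (-0.14) and Ocstamp (-0.04) were not called. Acid secretion had 3 higher and 1 lower of 23. Energy supply split into 3 higher, including Ppargc1b (0.52), and 4 lower, including Cox4i1, of the respiratory chain (-0.76), and Ckb (-0.51). The library left out was the wild-type one nearest the Nlrp3-/- libraries, so a wider separation follows in part from this choice. With any other single library left out, edgeR called no sealing zone, driving factor, fusion, acid secretion or energy gene. Whether the 3 wild-type libraries or the 2 alike give the better estimate was not tested.

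**Figure D5:**
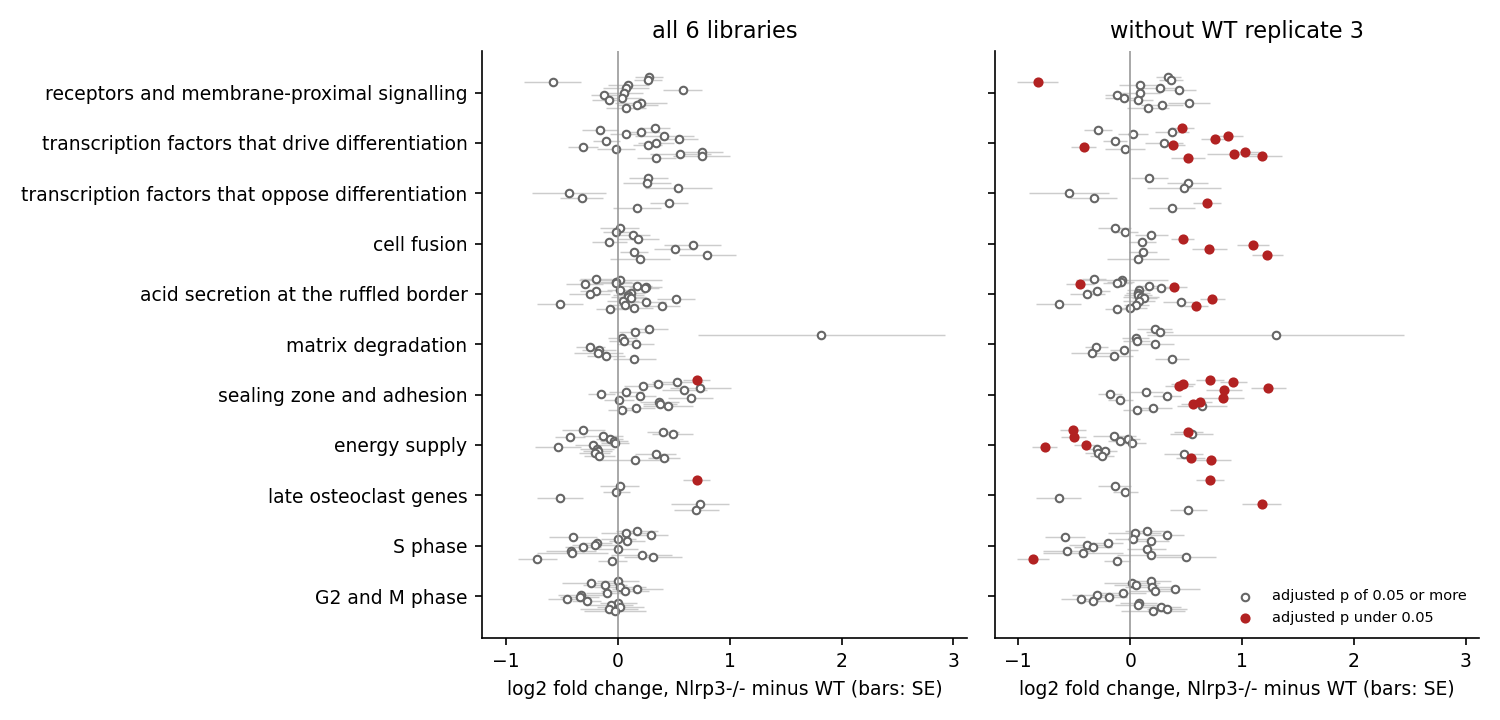
Log2 fold change between Nlrp3-/- and wild-type osteoclast-lineage cells for the genes of the osteoclast and cell cycle lists, with all 6 libraries (left) and without wild-type replicate 3 (right). Each point is a gene, each bar its standard error, and red marks an adjusted p under 0.05. Itgb3, which is on both the sealing zone and the late list, is the one gene in red on the left, and 9 sealing zone genes are red on the right.

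The genotype effect was next tested for a difference from that in C1q macrophages of the same libraries. In the macrophages 38 of 11142 genes were called, and 18 genes were shared with the 39 of the osteoclast-lineage cells, 46.2% of one list and 47.4% of the other. Of the genes named above, those called in both were Nlrp3, Xist, Ddx3y, Eif2s3y, Tpm3-rs7 (-5.86 in macrophages), Wdfy1 (-1.52), Hist3h2a (-1.47), Thg1l (1.66) and AC149090.1 (1.29). The other genes that met the naming rule were not called in macrophages. The difference itself passed in 10 of 11512 genes (0.0869%), with 939 at an unadjusted p under 0.05. Fn1 rose by 1.05 in osteoclast-lineage cells and had a log2 fold change of 0.10 in macrophages, a difference of 0.94 (edgeR adjusted p = 0.0027). As given above, its change in osteoclast-lineage cells was 0.46 and not called without the mixed cells. Gm2a (difference 1.03) and Gmfg (0.81) likewise had the larger value in osteoclast-lineage cells. Jdp2 showed the reverse arrangement. It was at 700 to 797 CPM in osteoclast-lineage cells of both genotypes, with no separation, whereas macrophages had 132, 131 and 111 CPM in wild-type and 66.9, 66.2 and 65.9 CPM in Nlrp3-/- libraries (difference 0.95, adjusted p = 0.0024). Itgb3 gave a difference of 0.25 (adjusted p = 0.90), so its change was not shown to be particular to osteoclast-lineage cells.

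Separate fits called 33 of 8864 genes (0.372%) in non-dividing and 24 of 7756 (0.309%) in dividing cells, of which 15 were shared. The genotype effect differed between them in 6 of 9375 genes (0.064%), with 468 at an unadjusted p under 0.05. These included antibody and pericyte genes with high levels in few libraries, such as Jchain at 337 CPM in dividing cells of wild-type replicate 3 and at 166 CPM in non-dividing cells of Nlrp3-/- replicate 3. Itgb3 was at 60.2, 51.9 and 67.9 CPM in non-dividing wild-type and 92.4, 106 and 110 CPM in non-dividing Nlrp3-/- cells, and at 5.23 to 18.7 CPM in all dividing cells. Its level was thus set mostly by non-dividing cells in both genotypes.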

How the data were processed

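Libraries were made with the Chromium Single Cell 3′ v3 kit. The authors deposited raw matrices of UMI counts per gene and barcode, before cell calling. The labels name Cell Ranger 2.1.1 and mm10, and the file headers Cell Ranger 4. The 6 matrices held 97042713 to 134901999 UMIs over 32285 genes. Positions come from GENCODE annotation of GRCm38 (mm10), which held 32235 of the gene identifiers.

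Osteoclast-lineage cells and gene lists were chosen with earlier results of these data known. UMIs were summed per library and population and tested with edgeR 4.0.16 (R 4.3.3): TMM factors, filterByExpr, quasi-likelihood test, Benjamini-Hochberg adjustment over all genes tested and a threshold of 0.05. Differences in genotype effect were tested as interactions with the library as a block. Standard errors given with edgeR are the absolute log2 fold change divided by the square root of the F statistic of the test. Shares were compared by exact two-sided permutation (scipy 1.17.1) with Wilson 95% intervals, which, like the limit of 3 counts for a 0, cover counting error only. Thinning used 1 fixed seed. Doublets were not removed with a caller; leaving out cells with 5 UMIs of another type's markers was an alternative, as were other limits, scalings, DESeq2 1.42.0, no filter and each library left out. Genes were named from the lists or, between genotypes, as the largest changes with adjusted p under 0.05, a mean of at least 20 CPM over the 6 libraries and no overlap, up to 12 each way, without predicted genes. Within libraries they were the largest ratios with 1 sign in all 6 and at least 100 CPM. On simulated counts, 79.4% of 2-fold and 96.8% of 4-fold changes were recovered in osteoclast-lineage cells (9683 genes), with 10 false calls. For dividing cells the shares were 54.8% and 97.9%. For the difference from macrophages, 67.2% of 4-fold changes were recovered. No simulated library was made to stand apart as wild-type replicate 3 did. Replicate numbers did not pair the libraries. Levels are counts of 3′ ends, so values of different genes are not compared.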

Additional observations from a re-analysis of the deposited data

Results flagged for a closer look

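The genotype effect differed between osteoclast-lineage cells and C1q macrophages in 10 genes by the test of the difference itself (edgeR quasi-likelihood, adjusted p under 0.05). On the log2 scale the differences were 1.029 for Gm2a, 0.953 for Jdp2, 0.944 for Fn1, 0.809 for Gmfg and 0.759 for Gadd45g, a stress-induced gene at 66.1 and 89.0 CPM (wild-type and Nlrp3-/- means) in osteoclast-lineage cells and at 193 and 152 CPM in macrophages. The value of -13.075 for Ighg2c, an antibody heavy chain gene, rested on 284 CPM in osteoclast-lineage cells of wild-type replicate 3 and 175 CPM in macrophages of Nlrp3-/- replicate 3, with at most 6.72 CPM elsewhere. The Fn1 change in osteoclast-lineage cells was 0.46 and no longer called (edgeR adjusted p = 0.47) without the cells that carried markers of other types.

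Between dividing and non-dividing cells 6 genes were flagged by the same test. They included Rgs5, a pericyte gene (7.801), the antibody genes Jchain (-11.555) and Ighg2c (-8.868), and the macrophage elastase gene Mmp12 (-4.026). High levels came from few libraries: Jchain was at 337 CPM in dividing cells of wild-type replicate 3 and at 166 CPM in non-dividing cells of Nlrp3-/- replicate 3, Rgs5 at 181 CPM in dividing cells of Nlrp3-/- replicate 3 and at 116 CPM in non-dividing cells of wild-type replicate 2, and Mmp12 at 648 CPM in non-dividing cells of Nlrp3-/- replicate 1, 118 CPM in those of wild-type replicate 2 and 95.1 CPM in those of Nlrp3-/- replicate 3.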

How the results depend on the processing

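In osteoclast-lineage cells the 39 called genes became 727 with no filter on low counts, 237 with DESeq2 and 17 to 1440 with 1 library left out, the largest without wild-type replicate 3. The 33 of non-dividing cells became 599, 193 and 16 to 1182, and the 24 of dividing cells 361, 126 and 9 to 569, or 84 with a replicate block. The 10 differences from macrophages became 235 with no filter and 6 to 20 with a library left out, and the 6 between dividing and non-dividing cells 92 and 4 to 26. The cause was not tested beyond the number of genes and libraries entering each fit. With a library left out, the difference in share ranged from -0.002212 to 0.7289 percentage points, negative without Nlrp3-/- replicate 3 (0.9717 without mixed cells), and that in dividing share from -9.448 to -2.043. Scaling by total UMIs, chosen after seeing the data, split the calls of dividing cells, 31 in all, into 19 higher and 12 lower, against 10 and 14. The direction changed for Mmp9 (-0.2146 with a mitochondrial limit of 5%) and for Acp5 (-0.1722 to 0.05411 with a library left out: 0.01405 without wild-type replicate 1, 0.05411 without replicate 2; then 0.1364 scaled by total UMIs, 0.001844 with stricter minimums and 0.08479 without mixed cells), neither of which was called. Over the named genes, 381 alternative values kept direction and call, 110 lost the call and 4 gained it. Those of Ctsk, Acp5 and Atp6v0d2, which chose the cells, are a description only. Same-numbered libraries correlated at -0.050, -0.097 and -0.097, so the numbers do not pair them. Left with 1 library fewer, a group of 2 was assumed to vary like the other. With 3 libraries per group no share can reach an exact permutation p below 0.1.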

Other observations

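The signals that act on osteoclasts were read in mesenchymal barcodes, 11879 barcodes with at least 5% of UMIs in the collagen genes named above. Tnfsf11, which encodes RANKL, was at 35.1, 47.1 and 79.0 CPM in wild-type and at 27.9, 70.2 and 42.6 CPM in Nlrp3-/- libraries (means 53.7 ± 22.7 and 46.9 ± 21.5, exact permutation p = 0.6). Osteoclast-lineage cells held it at 0 to 3.35 CPM. Tnfrsf11b, the decoy receptor osteoprotegerin, was at 7.69 ± 4.28 and 8.87 ± 4.15 CPM (exact permutation p = 0.9), Csf1, which encodes M-CSF, at 37.3 ± 14.7 and 27.6 ± 6.35 CPM (p = 0.4, exact permutation), and Il34, the other ligand of Csf1r, at 5.37 ± 1.57 and 4.54 ± 1.37 CPM (p = 0.6, exact permutation). Adjusted over the 7 cytokines compared, p was 0.98 to 1. The genotypes overlapped in each of these 4 genes.

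Some called genes outside the naming rule take part in signalling between cells, and those given here were chosen after their values were seen. Il1r2, the decoy receptor for IL-1, was at 8.36, 9.41 and 6.52 CPM in wild-type and at 1.26, 1.18 and 2.52 CPM in Nlrp3-/- osteoclast-lineage cells (log2 fold change -2.33, edgeR adjusted p = 0.025), a call lost in 7 of its alternatives. Gdf3, a ligand of the TGF-beta family, was at 0.36, 6.13 and 1.30 CPM against 33.5, 25.5 and 37.6 CPM (3.19, edgeR adjusted p = 0.013). Adora2b, an adenosine receptor gene within 20 Mb of Nlrp3, was called lower (log2 fold change -1.12, edgeR adjusted p = 0.040). It stood at 21.8, 21.3 and 18.6 CPM in wild-type and at 8.80, 10.7 and 11.9 CPM in Nlrp3-/- cells.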
